A study of Homo sapiens with 24 samples.

Results

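A pair of overexpression plasmids was compared in A549, a human lung adenocarcinoma line of epithelial type: 1 encoding the splicing factor SF3B2 and 1 encoding the small noncoding RNA snaR-A. The members were the 6 libraries that the labels give as A549 with SF3B2 or A549 with snaR-A, 3 per plasmid, out of 24 libraries in the series. The other 18 came from A549 with eGFP or a scrambled snaR-A sequence (scramble), and from HEK293T, a human embryonic kidney line, with the same 4 plasmids. All cells were unsorted populations transfected transiently with a Lipofectamine reagent and collected after 48 h, and the series names the 3 libraries of each group as biological replicates. SF3B2 was expressed with a FLAG tag from a pcDNA3.1 vector, whereas snaR-A was expressed from a U6 promoter, so that the insert and its vector cannot be told apart here. Neither group is a control for the other: each difference below is the level with SF3B2 relative to the level with snaR-A, and the eGFP and scramble libraries of A549 are given as side values.

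SF3B2 is a subunit of SF3B, a part of the U2 small nuclear ribonucleoprotein (U2 snRNP), which recognises the branch point of introns during the assembly of the spliceosome. snaR-A is a short RNA made by RNA polymerase III that binds the protein NF90 and is abundant in cancer and other fast-growing cells. The study behind these data asks whether snaR-A binds and counteracts SF3B2 and thereby alters splicing, for which both molecules were overexpressed. A direct comparison of the pair sets the protein against its proposed RNA partner without using the eGFP or scramble libraries.

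The snaR-A RNA itself was not followed here. The study's probe for it has 120 nucleotides, 64.2% of them G or C, and is given 5′ to 3′.
snaR-A probe: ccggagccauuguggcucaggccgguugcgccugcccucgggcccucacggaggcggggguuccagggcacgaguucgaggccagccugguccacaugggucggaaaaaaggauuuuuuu
It ends in a run of U, as RNA polymerase III transcripts do, and not in a poly(A) tail, while the libraries were made from poly(A)+ RNA. Of the 27 snaR gene symbols looked for, 0 were in the table of genes, so the level of snaR-A in the 6 libraries was not analysed here. The search was by symbol, which 39568 of the 60236 identifiers carried. The libraries labelled snaR-A are therefore identified by their labels alone.

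The table held estimated counts for 60236 genes. The SF3B2 libraries totalled 214482353, 237509899 and 215777182 counts, and the snaR-A libraries totalled 259603629, 252999531 and 229088251 counts. A gene at 0 counts could at this depth still be present at up to 3 counts, or 0.0116 to 0.0140 CPM (counts relative to the library total). Those limits are for counting error alone. Transcripts of the mitochondrial genome took 9.50%, 8.86% and 10.9% of the counts with SF3B2 and 11.3%, 12.2% and 11.6% with snaR-A, and the groups did not overlap.

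One label field disagreed with the others. snaR-A replicate 3 is titled A549, but its cell line and tissue fields give HEK293T and kidney. Its levels matched A549. Across 19880 genes its lowest Spearman correlation with another A549 library was 0.995 and its highest with a HEK293T library was 0.876. Genes typical of A549, led by the retinal dehydrogenase ALDH1A1 at 8781 CPM, summed to 19667 CPM in it, against 19952 to 20882 CPM in the other 5 libraries. It was kept with A549, and results are also given without it below. A list of 13 genes of blood, fibroblast and other cell types summed to 42.4, 45.8 and 43.3 CPM with SF3B2. With snaR-A it summed to 36.6, 36.4 and 42.3 CPM, so the sums were higher with SF3B2 and did not overlap. The list was led by CD68 in 5 of the 6 libraries and by COL1A1 in snaR-A replicate 1, and had 2 to 5 genes at 0 counts.

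SF3B2 was far higher in the libraries transfected with it. The gene lies on chr11:66050729-66069308 on the + strand (GRCh38). Its level was 41711, 39723 and 39260 CPM in the SF3B2 libraries and 255, 251 and 266 CPM in the snaR-A libraries. All 3 SF3B2 libraries were far above the 3 snaR-A libraries, and the groups did not overlap. The log2 difference was 7.29 ± 0.047 (SE), with an adjusted p of 2.01e-10 by edgeR's quasi-likelihood test with Benjamini-Hochberg adjustment. The exact two-sided permutation test gave p = 0.1, the smallest that 3 libraries against 3 can give. In the side libraries SF3B2 was at 257, 259 and 309 CPM with eGFP and at 317, 288 and 7470 CPM with scramble. The third scramble library stood apart from its group, and it enters none of the main tests here. SF3B2 alone took 4.13%, 3.97% and 3.86% of all counts in its 3 libraries. With all 12 A549 libraries in one fit the log2 difference stayed at 7.29, but its adjusted p was 0.0724. NME1 is a nucleoside diphosphate kinase. The study cites a report that a miRNA made from snaR lowers its RNA, and saw no significant effect in its own experiments. NME1 was at 206, 205 and 193 CPM with SF3B2 and 193, 193 and 185 CPM with snaR-A. Its groups met at 193 CPM, and its log2 difference of 0.08 had an adjusted p of 0.244.

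Beyond the plasmid gene, most of the differences that passed the test were small. Of 21617 genes tested, 146 (0.675%) had an adjusted p under 0.05, of which 92 (0.426%) were higher with SF3B2 and 54 (0.25%) were lower. Their median absolute log2 difference was 0.27, and 107 of the 146 differed by less than 0.5 on the log2 scale. Only 20 genes (0.0925%) also differed by more than 1 on the log2 scale, the threshold used by the study, 15 of them higher and 5 lower with SF3B2. At an unadjusted p under 0.05 there were 4589 genes. The 3 values of each group did not overlap in 5893 genes (27.3%), with SF3B2 the higher in 3341 and the lower in 2552. All 146 called genes were among these. The median log2 difference over all genes was 0.004.

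The number of calls rested on single libraries and on the test. In place of 146 genes, edgeR's exactTest called 1191 and the DESeq2 Wald test 2235. Without snaR-A replicate 3, the library with the conflicting label, 2133 genes had an adjusted p under 0.05 and 109 passed the threshold, and all 146 genes were among the 2133. Without snaR-A replicate 1 or replicate 2 the number was 17 in each case. Without SF3B2 replicate 1, 2 or 3 it was 19, 20 and 27. In all 6 of these fits 13 of the 146 genes kept an adjusted p under 0.05: SF3B2, HSPA6, HSPA1A, BTK, P3H2, H4C14 and 7 genes with no symbol. Scaling by library size alone in place of trimmed means (TMM) gave 77 higher and 492 lower genes, and moved the median of all genes to -0.04.

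**Figure D1:**
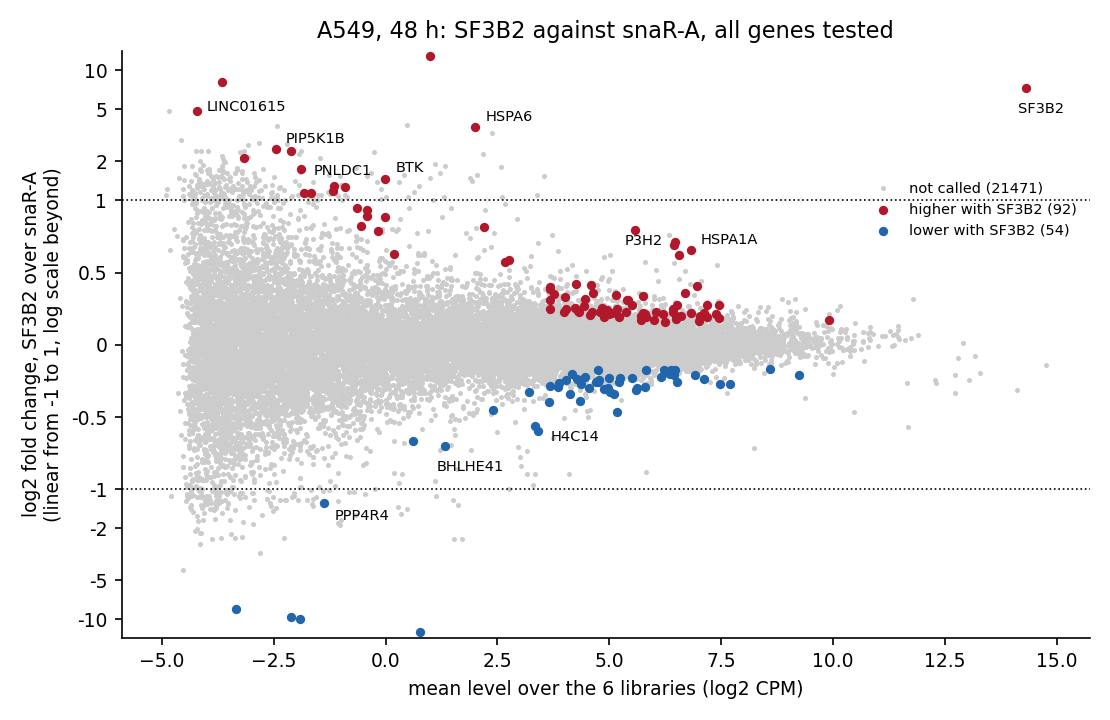
Log2 difference between the SF3B2 and snaR-A groups of A549 (y axis, linear from -1 to 1 and logarithmic beyond) against the mean level in log2 CPM (x axis), 1 point per gene tested, with genes called higher in red, called lower in blue and a dotted line at the threshold in each direction. Most of the 146 called genes lie within 0.5 of 0, while SF3B2 and HSPA6 are the only genes above 1 log2 CPM that are called and pass the threshold of 1.

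Most of the 20 genes with a log2 difference beyond 1 were barely expressed. For 18 the mean level was below 1 log2 CPM, and the exceptions were SF3B2 and HSPA6. Of the 20, 6 carried an identifier with no symbol, and 5 of these were not in the annotation (GENCODE 44). Among the 146 genes, 6 had a group at 0 counts, all with no symbol. Against a floor of 3 counts per library, 2 of these were at least 301-fold and 11.4-fold higher with SF3B2 and 4 were at least 12.2-fold to 237-fold lower, and the largest of the lower genes were ENSG00000235360 and ENSG00000274638. Of the 31-base words of the transcripts of ENSG00000272760, also among the lower, 100% occur in PAXIP1-AS2. How its counts were divided is therefore uncertain. The 5 identifiers outside the annotation could not be checked for shared sequence, so their folds carry the same limit.

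The heat shock gene HSPA6 was the only gene besides SF3B2 that passed the threshold at a mean of at least 1 log2 CPM. Heat shock proteins are chaperones that bind unfolded proteins, and their genes are turned on by heat shock factor when unfolded protein accumulates. Of 38 tested genes of this family and its partners, 4 were higher with SF3B2 and 0 were lower, where 0.426% and 0.25% of all genes were: HSPA6, HSPA1A, BAG3 and DNAJB1. The list's median log2 difference was 0.05 against 0.004 for all genes, and its members ran from -0.38 to 3.68. The groups did not overlap in 22 of the 38, with SF3B2 the higher in 19 and the lower in 3, against 3341 and 2552 of all 21617 genes. Under the other scalings the list's median lay between 0.0008 and 0.064.

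HSPA6, a strictly inducible cytosolic HSP70 chaperone, lies in 1 exon at chr1:161524540-161526894 on the + strand. It was at 7.37, 7.17 and 7.66 CPM with SF3B2 and at 0.505, 0.57 and 0.658 CPM with snaR-A. All 3 SF3B2 libraries were well above all 3 snaR-A libraries. The log2 difference was 3.68 ± 0.11 (SE, adjusted p = 1.42e-05, edgeR), or 12.8-fold. In the side libraries of A549 it was at 1.94, 1.88 and 1.81 CPM with eGFP and at 0.615, 0.566 and 1.77 CPM with scramble. The SF3B2 libraries were thus above all 9 others, and the snaR-A libraries overlapped the 2 lower scramble libraries. The third scramble library, the one with 7470 CPM of SF3B2, was again apart from its group.

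HSPA1A, the main stress-inducible HSP70, lies at chr6:31815543-31817946 on the + strand. Its level was 134, 138 and 138 CPM with SF3B2 and 87.1, 81.4 and 91.4 CPM with snaR-A, a log2 difference of 0.66 ± 0.043 (SE, adjusted p = 0.00114, edgeR). The groups did not overlap. It was at 94, 94.1 and 104 CPM with eGFP and at 89.2, 85 and 102 CPM with scramble, all below the 3 SF3B2 libraries. Both genes share sequence with a near copy. Of the 31-base words of HSPA1A transcripts 76.0% also occur in HSPA1B, which had 0 counts in all 6 libraries, and 57.0% of those of HSPA6 occur in the pseudogene HSPA7, which had 2, 2 and 2 counts with SF3B2 and 0, 2 and 0 with snaR-A. How the counts were divided between such copies is uncertain. HSPA1A and HSPA1B also lie in the major histocompatibility region, for which GRCh38 holds alternate haplotypes whose gene copies carry identifiers of their own, so counts of this pair may also stand under identifiers outside the annotation.

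The co-chaperones moved less. BAG3, which links HSP70 to autophagy, was at 99.7, 98.9 and 98.5 CPM with SF3B2 and at 80, 82.5 and 82.5 CPM with snaR-A, a log2 difference of 0.28 (adjusted p = 0.00862, edgeR). DNAJB1, the HSP40 partner of HSP70, was at 148, 150 and 147 CPM with SF3B2 and at 129, 123 and 129 CPM with snaR-A, a log2 difference of 0.22 (adjusted p = 0.0341). In neither gene did the groups overlap, and both were also higher than in the 3 eGFP and the 3 scramble libraries. Their calls were less firm. BAG3 was called without SF3B2 replicate 3 or snaR-A replicate 3 but in none of the other 4 fits that left out a library, and DNAJB1 was called only without snaR-A replicate 3. HSPB1, a small heat shock protein, was at 123, 129 and 111 CPM against 77.6, 75 and 102 CPM, which do not overlap, but its log2 difference of 0.51 had an adjusted p of 0.0704. Its highest snaR-A value was that of replicate 3. HSPA8, the constitutive HSP70, was added after its values were seen: it was at 1843, 1818 and 1809 CPM with SF3B2 and at 1814, 1771 and 1762 CPM with snaR-A, overlapping values whose log2 difference was 0.03 (adjusted p = 0.517).

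**Figure D2:**
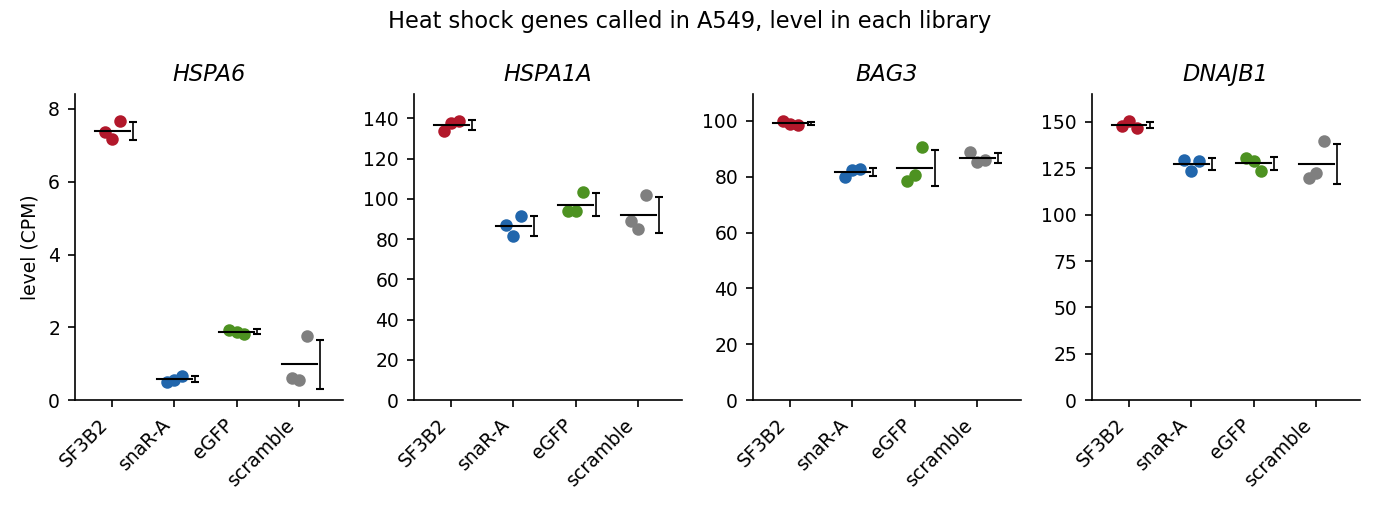
Level of the 4 called heat shock genes (y axis, CPM on a linear scale that starts at 0 and differs between panels) in each of the 12 A549 libraries by plasmid (x axis), with each point 1 library, the horizontal line the group mean and the error bar 1 SD (n = 3). HSPA6 is at 7.17 to 7.66 CPM in the 3 SF3B2 libraries and at 0.505 to 0.658 CPM in the 3 snaR-A libraries, and BAG3 and DNAJB1 differ by much less.

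The promoters of the inducible pair are shown because heat shock factor is known to bind paired GAA units there. The search letters for a heat shock element were GAANNTTC or TTCNNGAA on both strands, in the 250 bases before the start site (RefSeq, GRCh38.p14). Matches are in capitals and overlapping matches run together. The HSPA6 window is chr1:161524290-161524539 and the HSPA1A window chr6:31815293-31815542, both on the + strand.
HSPA6: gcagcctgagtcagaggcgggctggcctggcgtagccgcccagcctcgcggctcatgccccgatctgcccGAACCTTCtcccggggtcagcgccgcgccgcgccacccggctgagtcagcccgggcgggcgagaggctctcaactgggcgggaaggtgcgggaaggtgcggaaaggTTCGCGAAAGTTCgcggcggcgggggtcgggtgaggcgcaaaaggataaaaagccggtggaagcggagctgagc
HSPA1A: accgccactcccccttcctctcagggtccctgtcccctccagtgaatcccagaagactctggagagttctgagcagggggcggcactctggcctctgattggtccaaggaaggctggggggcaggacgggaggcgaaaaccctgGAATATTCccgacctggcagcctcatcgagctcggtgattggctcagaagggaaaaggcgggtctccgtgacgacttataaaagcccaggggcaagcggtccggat
HSPA6 held 3 matches, which began 180, 74 and 69 bases before the start site, and HSPA1A held 1, which began 106 bases before it. The windows of BAG3 and DNAJB1 held 0 matches to these letters. Such a match was common, since 11.6% of 35116 promoters held one. It was in 6 of the 54 higher genes with a listed promoter (11.1%), namely HSPA6, HSPA1A, FBXW5, MEN1, APRT and UBXN6, and in 3 of the 36 lower genes (8.33%).

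Several genes of very low level were higher with SF3B2 in both cell lines. They are the genes with a symbol past the threshold in both lines, besides SF3B2 and HSPA6, and were named after their values were seen, since they lie under the level set for naming. BTK, a tyrosine kinase of B cell receptor signalling encoded at chrX:101349338-101390796, was at 1.52, 1.39 and 1.45 CPM with SF3B2 and at 0.483, 0.531 and 0.556 CPM with snaR-A. The log2 difference was 1.47 ± 0.11 (SE, adjusted p = 0.00211, edgeR), and the 3 SF3B2 libraries were above all 9 other A549 libraries, which lay between 0.356 and 0.702 CPM. In HEK293T it was at 13.4, 8.65 and 9.16 CPM with SF3B2 and at 0.827, 0.872 and 1.1 CPM with snaR-A, a log2 difference of 3.49 (adjusted p = 0.003). The interaction, the difference in A549 minus that in HEK293T, was -2.03 on the log2 scale (adjusted p = 0.0029).

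The other 3 had similar values of the difference in the 2 lines, and their interactions had adjusted p-values of 0.814 (MRC1), 0.803 (NPC1L1) and 0.940 (PNLDC1). They were chosen for passing the threshold in both lines, so nothing is read from this likeness. MRC1, the macrophage mannose receptor, was at 0.63, 0.573 and 0.627 CPM with SF3B2 and at 0.255, 0.275 and 0.276 CPM with snaR-A. The groups did not overlap, and the log2 difference was 1.18 in A549 and 1.06 in HEK293T. NPC1L1, the intestinal sterol transporter, was at 0.842, 0.737 and 0.66 CPM against 0.374, 0.302 and 0.255 CPM, a log2 difference of 1.26 in A549 and 1.36 in HEK293T. PNLDC1, an exonuclease that trims piRNAs in the germ line, was at 0.348, 0.333 and 0.551 CPM against 0.0974, 0.155 and 0.115 CPM, a log2 difference of 1.74 in A549 and 1.65 in HEK293T. The smallest adjusted p of these 3 in A549 was 0.0165, for MRC1, and each was called in only 1 of the 6 fits that left out a library, the one without snaR-A replicate 3. With an offset for transcript GC content MRC1 was called (1.21, adjusted p = 0.0216), and NPC1L1 (1.17, adjusted p = 0.0629) and PNLDC1 (1.72, adjusted p = 0.0638) were not. None shared a 31-base word of its transcripts with SF3B2, and the share that occurs in any other gene was 5.89% for BTK, 0.770% for NPC1L1 and 0% for MRC1 and PNLDC1.

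Among the higher genes with a symbol and a mean of at least 1 log2 CPM, P3H2 followed HSPA6 and HSPA1A. P3H2 (chr3:189956728-190122437, - strand) encodes a prolyl hydroxylase that modifies collagen. It was at 109, 116 and 112 CPM with SF3B2 and at 72.6, 71.8 and 74.8 CPM with snaR-A, a log2 difference of 0.62 ± 0.033 (SE, adjusted p = 0.000296, edgeR). The groups did not overlap. All 6 side libraries lay above the snaR-A libraries, and some reached the SF3B2 values: it was at 78.5, 113 and 79.1 CPM with eGFP and at 78.2, 85.1 and 109 CPM with scramble. Of the identifiers outside the annotation, 3 were called in all 17 alternatives, and they differed to a like degree. Which genes they stand for was not determined here, and copies of annotated genes on alternate haplotypes may be among them. ENSG00000231555 was at 109, 109 and 112 CPM against 70.4, 65.1 and 65.3 CPM, a log2 difference of 0.71 (adjusted p = 0.000287), and ENSG00000232804 was at 60.7, 61.3 and 56.7 CPM against 33.5, 32.7 and 36.9 CPM, a log2 difference of 0.79 (adjusted p = 0.00114). ENSG00000235941 was at 105, 106 and 107 CPM against 65.1, 63.1 and 68.6 CPM, a log2 difference of 0.69 (adjusted p = 0.000265). In all 3, the SF3B2 libraries were above all 9 other A549 libraries.

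The next 11 higher genes of the naming rule had log2 differences between 0.31 and 0.42. VSIR, an immune checkpoint receptor, was at 22.9, 22.3 and 20 CPM against 16.5, 16.2 and 15.9 CPM (log2 difference 0.42, adjusted p = 0.0309). UQCR11, a subunit of respiratory complex III, was at 25.6, 27.9 and 28.6 CPM against 19.8, 19.4 and 22.4 CPM (0.42, adjusted p = 0.0465). RPS29, a protein of the small ribosomal subunit, was at 120, 119 and 108 CPM against 87.4, 87.4 and 96 CPM (0.36, adjusted p = 0.0439). None of these 3 had overlapping groups, though in each the margin between the nearest libraries was much smaller than for HSPA6. The other 8 were MFSD10, CYB5D2, BMERB1, TST (a mitochondrial sulfurtransferase), ORAI2 (a store-operated calcium channel), SIVA1, DEDD2 (a nuclear death effector domain protein) and MRC2 (a collagen receptor). Set against the side libraries, the higher genes were counted as follows, and a gene could meet both of the first conditions. Of the 92, 52 had all 3 SF3B2 libraries above the 9 other A549 libraries, 8 had all 3 snaR-A libraries below the other 9, and 38 had neither. Without the third scramble library, the one with 7470 CPM of SF3B2, these numbers were 80, 8 and 10. Every called gene already had SF3B2 and snaR-A groups that did not overlap, which is part of both conditions. The same counts are not given for all genes, so nothing is read from these numbers.

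Among the lower genes were PER1, NR1D2 and BHLHE41, known as regulators of the circadian clock. PER1 (chr17:8140472-8156506, - strand), a repressor of the clock that is also an immediate early gene, was at 8.49, 7.17 and 8.53 CPM with SF3B2 and at 11.5, 11.6 and 12.6 CPM with snaR-A, and fell by 0.56 on the log2 scale (adjusted p = 0.0414, edgeR). NR1D2, a nuclear receptor that represses BMAL1, was at 43.8, 44.1 and 44.2 CPM against 53, 56 and 53.4 CPM and fell by 0.30 (adjusted p = 0.0129). BHLHE41, a repressor that binds E-boxes, was at 2.11, 1.75 and 1.83 CPM against 2.92, 3.45 and 2.88 CPM and fell by 0.70 (adjusted p = 0.0489). The groups of all 3 were separate. They differed in which group stood apart from the side libraries. PER1 with snaR-A was above all 9 other A549 libraries (6.25 to 9.65 CPM), NR1D2 with snaR-A was above and with SF3B2 below all the others, and BHLHE41 did neither. A clock list of 19 genes was written after these values were seen and serves only as a description: 3 were lower (0.25% of all genes were) and 0 were higher, 3 had a positive difference, and the median was -0.09. Each of the 3 calls held in only 1 of the 6 fits that left out a library, the one without snaR-A replicate 3, and that of BHLHE41 was lost with a GC offset, which takes the trend over transcript GC content out of each library (-0.71, adjusted p = 0.0629), with nearly the same difference.

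TNFAIP3 and NFKBIZ, set together here from the calls because both act on NF-kB signalling, were also lower. TNFAIP3 (A20), a deubiquitinase that ends NF-kB signalling, was at 29.7, 29.3 and 30.4 CPM with SF3B2 and at 37, 40 and 46.5 CPM with snaR-A, and fell by 0.47 on the log2 scale (adjusted p = 0.049, edgeR). NFKBIZ, a nuclear IkB protein, was at 43.4, 40.9 and 43.3 CPM against 52.1, 54.1 and 52.3 CPM and fell by 0.31 (adjusted p = 0.0146). In both genes the 3 SF3B2 libraries were below all 9 other A549 libraries. Both were called in only 1 of the 6 fits that left out a library, the one without snaR-A replicate 3, and TNFAIP3 was not called with the GC offset, although its log2 difference was -0.46 there (adjusted p = 0.0648). Of the 27 tested inflammatory genes on the list, which does not hold NFKBIZ, TNFAIP3 was the 1 that was called (0.675% of all genes were), 5 had a positive difference, 15 had SF3B2 wholly below snaR-A and 0 wholly above, against 2552 and 3341 of all 21617 genes, and the median was -0.12. RELB, an NF-kB subunit, was at 1.5, 1.47 and 2.27 CPM against 2.5, 5.46 and 5.02 CPM, a log2 difference of -1.31 with an adjusted p of 0.0729.

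H4C14 was the 1 lower gene with a symbol that was called in all 6 fits that left out a library. H4C14 (chr1:149832657-149839767, + strand), a replication-dependent histone gene, was at 8.32, 8.5 and 8.39 CPM with SF3B2 and at 12.3, 12.9 and 12.9 CPM with snaR-A, and fell by 0.60 on the log2 scale (adjusted p = 0.00211, edgeR). The snaR-A libraries were above all 9 other A549 libraries, whose values reached 9.43 CPM. Of its 31-base words 98.6% occur in H4C15, whose log2 difference was -0.38 (adjusted p = 0.0779), so the 2 copies cannot be separated. H4C15 was at 7.17, 7.11 and 7.93 CPM with SF3B2 and at 9.12, 10.9 and 8.85 CPM with snaR-A. It was at 8.91, 9.77 and 10.3 CPM with eGFP and at 10.5, 12.4 and 7.59 CPM with scramble. In this copy the snaR-A libraries thus did not stand above the side libraries. Of 23 tested histone genes 2 were called, both lower, where 0.25% of all genes were lower, and the median was 0.01. Most mRNAs of replication-dependent histones lack a poly(A) tail, so poly(A)+ libraries hold a part of them only.

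HNRNPH1 was the 1 called gene of 36 tested SR and hnRNP regulators, where 0.675% of all genes were called. HNRNPH1, a regulator of exon inclusion that binds G runs, was at 569, 548.6 and 562 CPM with SF3B2 and at 651, 671 and 621 CPM with snaR-A, and fell by 0.21 on the log2 scale (adjusted p = 0.0489, edgeR). Of the 36, 6 had a positive difference, 15 had SF3B2 wholly below snaR-A and 4 wholly above, against 2552 and 3341 of all 21617 genes. Their median was -0.05, and it was negative under each scaling tried (-0.10 to -0.03). Splicing genes outside the lists were called in both directions, and those named here were picked after their values were seen. SREK1, an SR-related protein, was at 128, 129 and 125 CPM against 149, 151 and 150 CPM and fell by 0.24 (adjusted p = 0.0129). SNRPD3, a core Sm protein, was at 72.9, 70.5 and 72.4 CPM against 83.3, 81.7 and 80.5 CPM and fell by 0.19 (adjusted p = 0.0439). PRPF38B, a pre-mRNA processing factor, fell by 0.20 (adjusted p = 0.0341), whereas RBM42, an RNA-binding protein, was higher by 0.17 (adjusted p = 0.0439). With the GC offset PRPF38B was called, while HNRNPH1 (-0.15, adjusted p = 0.0629), SREK1 (-0.17, adjusted p = 0.0607), SNRPD3 (-0.17, adjusted p = 0.0549) and RBM42 (0.01, adjusted p = 0.877) were not. Each of these genes, PRPF38B included, was called in only 1 of the 6 fits that left out a library, the one without snaR-A replicate 3.

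Of 23 tested U2 snRNP genes, 1 was higher, SF3B2 itself, and 0 were lower, where 0.426% and 0.25% of all genes were. The list's median was 0.04. SF3B1, the largest SF3B subunit, was at 480, 491 and 480 CPM with SF3B2 and at 463, 465 and 468 CPM with snaR-A, a log2 difference of 0.06 (adjusted p = 0.228). SF3A3 was at 93.5, 90.7 and 87.1 CPM against 101, 104 and 93.2 CPM, a difference of -0.14 (adjusted p = 0.148). These are mRNA levels and do not bear on the proteins. On the lists fixed for the rest of the machinery, which do not hold SNRPD3 or PRPF38B, none of 36 other spliceosome genes (median 0.003), 9 minor spliceosome genes (-0.03) or 15 genes of nonsense-mediated decay (0.003) was called. Among the mRNAs of 57 proteins that the study pulled down with snaR-A, 1 was higher (SF3B2) and 1 lower (HNRNPH1). Of all genes 0.426% were higher and 0.25% lower, and the median of these 57 was -0.02. The 13 transcripts that the study tested for intron retention had 0 calls and a median of 0.13 in A549, which was 0.0073 with the GC offset, and 6 of them were called higher without snaR-A replicate 3, where 1381 of all 22223 genes were. In HEK293T their median was -0.15, with 2 called lower (PAN2 and MUS81), where 3.36% of all genes were. The deposited table sums each gene, so splicing itself was not analysed here.

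Of 447 tested zinc finger genes whose symbol starts with ZNF, 7 were lower and 0 higher, where 0.25% of all genes were lower, and the median was -0.07. With the GC offset 2 of the 7, ZNF699 and ZNF75A, were called and 5 were not, with log2 differences of -0.30 for ZNF841, -0.24 for ZNF3, -0.22 for ZNF551, -0.20 for ZNF875 and -0.16 for ZNF260, against -0.33, -0.23, -0.24, -0.18 and -0.22 without it. ZNF699 fell by 0.45 and ZNF841 by 0.33 on the log2 scale. Other lower genes of the naming rule were CEP152, a scaffold of centriole duplication, which was at 17.1, 17.1 and 18.1 CPM against 22.2, 23.1 and 23.1 CPM and fell by 0.39 (adjusted p = 0.0102, edgeR), together with FSBP, MYSM1, OTUD6B-AS1, ZBTB10 and the pseudogene SNX18P12, which fell by 0.29 to 0.34. Of these 6, OTUD6B-AS1 (-0.24, adjusted p = 0.0517) and ZBTB10 (-0.25, adjusted p = 0.0823) were not called with the GC offset. FSBP shares 46.8% of its 31-base words with RAD54B, so its counts are uncertain. Of the 54 lower genes, 29 had all 3 SF3B2 libraries below the 9 other A549 libraries, 13 had all 3 snaR-A libraries above the other 9, and 14 had neither. A gene could meet both of the first conditions, as NR1D2 did. Without the third scramble library these numbers became 35, 13 and 8. As for the higher genes, the choice of the genes met part of both conditions, and nothing is read from these numbers. Long noncoding RNA genes as a class had a median of -0.07 over 4010 tested, with 3 higher and 9 lower. Protein-coding genes had a median of 0.01 over 15164 tested, with 78 higher and 40 lower. Of all genes tested, 0.426% were higher and 0.25% were lower.

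Interferon response genes leaned one way without any of them being called. These genes are turned on by interferons and protect cells against viruses. All 45 tested genes had a positive difference, with a median of 0.32 (0.27 to 0.32 under the other scalings), and 0 had an adjusted p under 0.05. IFIT2, which binds foreign RNA, was at 105, 111 and 84.4 CPM with SF3B2 and at 39.2, 63.9 and 75 CPM with snaR-A. Its log2 difference was 0.76 with an adjusted p of 0.108, although its groups did not overlap. Of the 45, only 2 had SF3B2 wholly above snaR-A and 0 wholly below, against 3341 and 2552 of all 21617 genes. The mean level of the list was 4.58, 4.60 and 4.36 log2 CPM with SF3B2 and 3.88, 4.08 and 4.54 with snaR-A, so the groups overlapped through snaR-A replicate 3. Without that library 33 of the 45 were higher, where 1381 of all 22223 genes tested were, and the median was 0.53, and without snaR-A replicate 1 the median was 0.17 with 0 higher. The eGFP libraries had more IFIT2 than either group, at 480, 511 and 406 CPM, and the scramble libraries had 49.8, 41.1 and 39.9 CPM. The 12 tested antigen presentation genes had 0 calls and a median of 0.13, and the 20 sensors of nucleic acid had 0 calls and a median of 0.05.

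Other stress and growth programs had few or no calls, where 0.675% of all genes were called. Integrated stress response (33 tested, median 0.03), unfolded protein response (20, -0.01), proteasome (31, -0.01), p53 (27, 0.03), hypoxia and glycolysis (29, 0.04), sterol (25, 0.03) and proliferation genes (30, -0.01) had 0 called members each. Of 30 NRF2 targets, a program that is active in A549, 1 was higher and 0 were lower, with a median of 0.05. Of 31 immediate early genes, ARC was higher by 0.78 and KLF10 fell by 0.27. Of 25 genes of the epithelial-mesenchymal transition, ESRP1, an epithelial splicing regulator, was higher, at 0.433, 0.35 and 0.353 CPM against 0.187, 0.182 and 0.144 CPM (log2 difference 1.14, adjusted p = 0.049, edgeR). It was called in 1 of the 6 fits that left out a library. With the GC offset neither ESRP1 (1.17, adjusted p = 0.0605) nor ARC (0.61, adjusted p = 0.0750) was called. RPS29 was the 1 called gene of 48 cytosolic ribosomal proteins (median 0.05), and EPB41L4A-AS1 the 1 of 15 small nucleolar RNA host genes (median -0.18).

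Transcripts of the mitochondrial genome mostly had negative differences, but none was called. Of 15 tested, 1 had a positive difference, 9 had SF3B2 wholly below snaR-A, as 2552 of all 21617 genes did, and 0 were called, with a median of -0.24. MT-ND6, a complex I subunit from the light strand, was at 226, 187 and 260 CPM against 410, 367 and 330 CPM, a log2 difference of -0.72 (adjusted p = 0.052). In bulk RNA, fewer cells with a transcript and less of it per cell cannot be told apart, here as for every gene above. Of the 30 lists with a tested member, 21 had a positive median, and 9 did with scaling by library size alone.

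**Figure D3:**
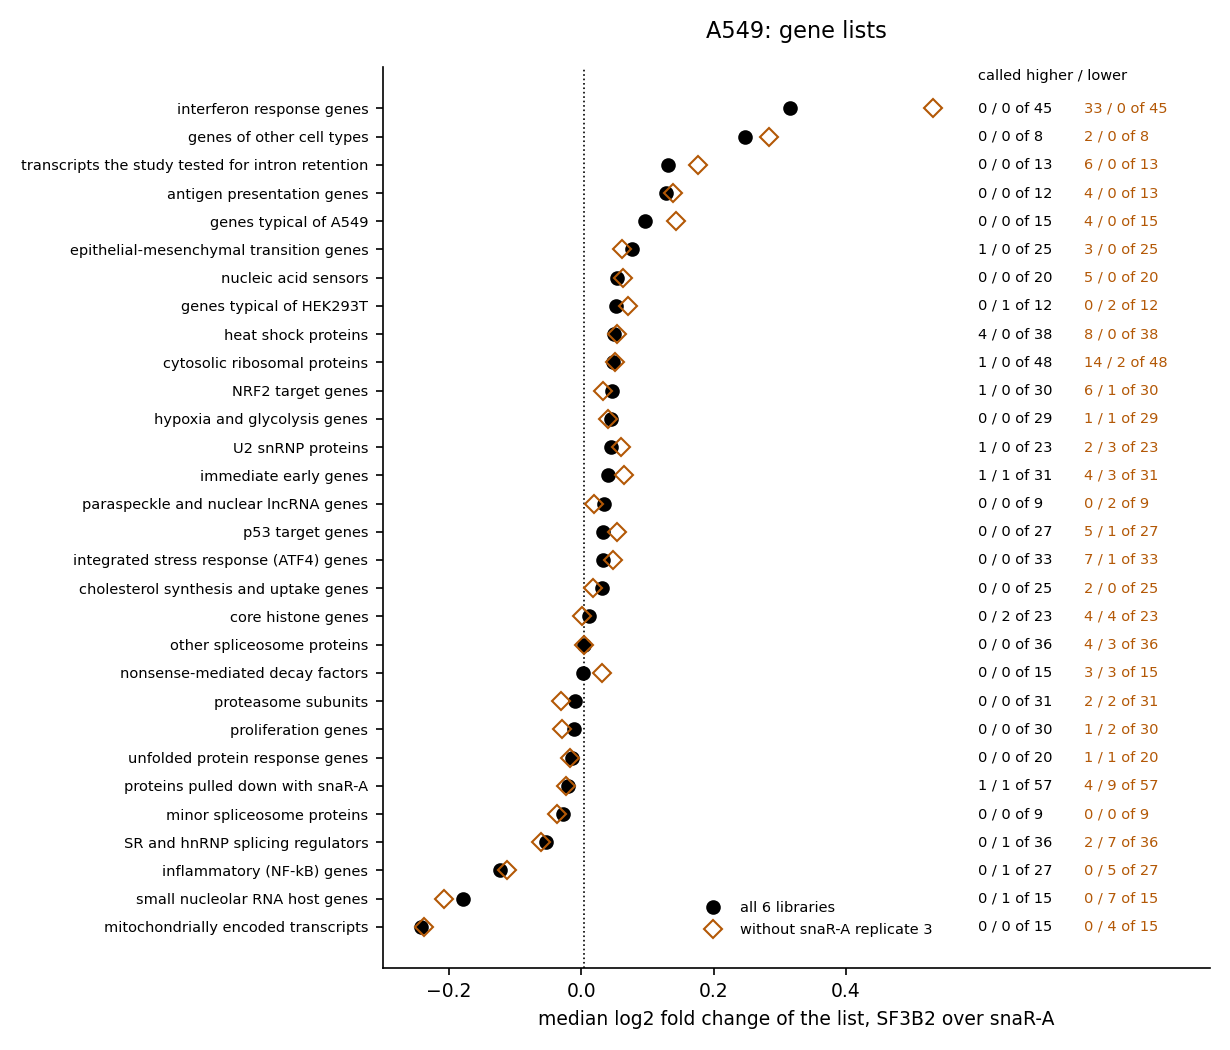
Median log2 difference between SF3B2 and snaR-A in A549 (x axis) over the tested members of each of 30 gene lists (y axis), with filled circles for all 6 libraries, open diamonds without snaR-A replicate 3, a dotted line at the median of all genes, and at the right the called members in each setting. The interferon response genes lie farthest to the right with a median of 0.32 and 0 called, which became 0.53 and 33 called without that library, whereas the heat shock list has a median of 0.05 and 4 called members.

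The called genes differed in base composition. Among protein-coding genes of at least 1 log2 CPM (11342 genes), the median GC content of the transcripts was 59.8% for 64 higher genes, 42.8% for 38 lower genes and 47.3% for all. Median transcript length was 3079 bases for the higher, 5178.5 for the lower and 4069 for all. In 10 equal bins of these genes by GC content, the median log2 difference went from -0.06 in the lowest bin, with 0 higher and 9 lower genes, to 0.15 in the highest, with 27 higher and 1 lower. Per library, the highest bin lay above the mean of the A549 libraries by 0.10, 0.13 and 0.10 on the log2 scale with SF3B2 and at -0.06, -0.07 and 0.03 with snaR-A. It was at -0.05, -0.08 and -0.04 with eGFP and at -0.12, -0.08 and 0.11 with scramble, so that snaR-A replicate 3 and scramble replicate 3 sat apart from their own groups. With the GC offset, chosen after seeing the data, 52 genes had an adjusted p under 0.05, 49 of them among the 146. HSPA6 (3.59), HSPA1A (0.55), P3H2 (0.60), BTK (1.48) and H4C14 (-0.59) were all called in that fit, and DNAJB1 (0.16, adjusted p = 0.0629), RPS29 (0.38, adjusted p = 0.0582) and HNRNPH1 (-0.15, adjusted p = 0.0629) were not. Of the 11 higher genes listed after P3H2, CYB5D2 and ORAI2 were called and the other 9 were not. Among these 9 the log2 difference became smaller by over 1.5 times for MFSD10 (0.40 to 0.23), TST (0.35 to 0.20), DEDD2 (0.32 to 0.17) and MRC2 (0.31 to 0.17). It moved less for VSIR (0.42 to 0.33), UQCR11 (0.42 to 0.38), BMERB1 (0.36 to 0.34), SIVA1 (0.33 to 0.26) and RPS29 (0.36 to 0.38). Whether the trend comes from the RNA or from library preparation was not tested.

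**Figure D4:**
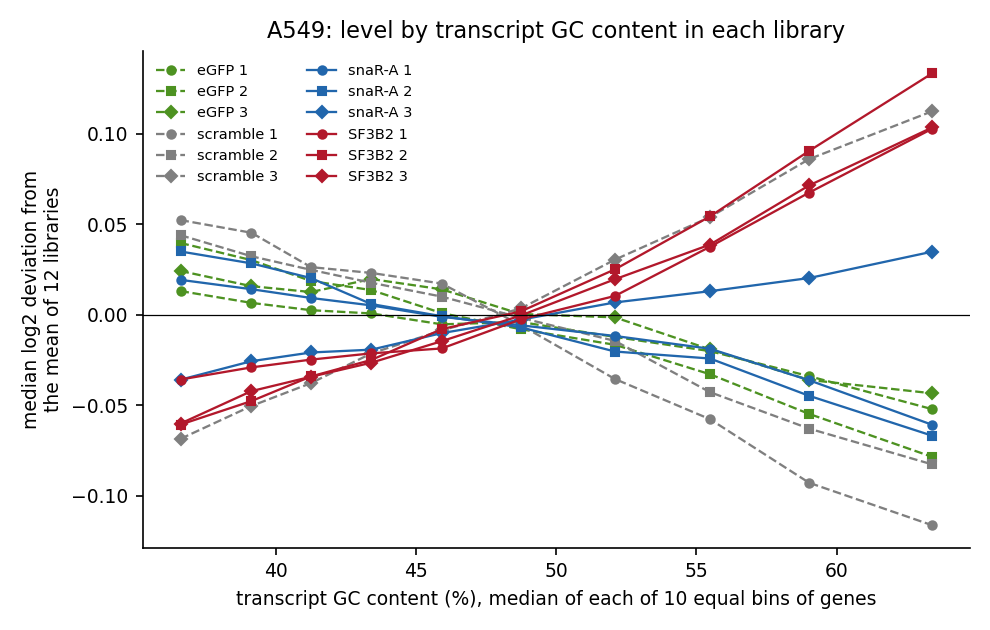
Median deviation from the mean of the A549 libraries on the log2 scale (y axis) for 10 equal bins of protein-coding genes, each set at its median transcript GC content in percent (x axis), with 1 line per library, coloured by plasmid, dashed for eGFP and scramble, and marked by replicate number. In the highest bin the SF3B2 libraries are at 0.10 to 0.13, the snaR-A libraries at -0.07 to 0.03, and the third scramble library lies at 0.11, apart from the other 2.

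The same pair of plasmids in HEK293T gave mostly other differences. There, 1625 of 22888 genes (7.1%) had an adjusted p under 0.05, 857 (3.74%) higher and 768 (3.36%) lower with SF3B2, and 335 (1.46%) passed the threshold. Of the 89 higher genes of A549 that were tested in HEK293T, 34 had a positive difference there, and 15 were called higher and 5 lower. Of the 49 lower genes, 16 had a negative difference there, and 3 were called lower and 4 higher. A test of the interaction over 12 libraries called 3048 of 24831 genes (12.3%), and 75 of the 146 were among them. The A549 difference that chose the 146 is 1 side of the interaction, so nothing is read from that share. Without HEK293T SF3B2 replicate 1, 2 or 3 the number past the threshold in HEK293T was 208, 16 and 960, and without snaR-A replicate 1, 2 or 3 it was 1, 9 and 9. The number of interactions lay between 783, without A549 snaR-A replicate 2, and 6679, without HEK293T SF3B2 replicate 3, over the 12 fits that left out a library. The trend over GC content also ran the other way in HEK293T, from 0.10 in the lowest bin to -0.15 in the highest.

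Members of the heat shock list were called higher in both lines. In HEK293T 13 of 36 tested were higher and 0 lower, where 3.74% and 3.36% of all genes were, with a median of 0.23. HSPA6 was at 0.733, 0.789 and 0.879 CPM with SF3B2 and at 0.254, 0.375 and 0.299 CPM with snaR-A, a log2 difference of 1.38 (adjusted p = 0.025, edgeR), which was smaller than in A549 by 2.29 (adjusted p = 0.00069 for the interaction). HSPA1A under its annotated identifier was at 0.312 to 2.06 CPM in all 6 HEK293T libraries and was not called. Here too, counts of this gene may stand under identifiers outside the annotation, so its level in HEK293T is uncertain. BAG3 was higher by 0.35 and DNAJB1 by 0.43 in HEK293T, and their interaction had adjusted p-values of 0.332 and 0.115. CYB5D2 (0.39 and 0.52) and DEDD2 (0.32 and 0.37) were also called higher in both lines. By contrast, TST was higher in A549 (0.35) and lower in HEK293T (-0.67), MRC2 was higher in A549 (0.31) and lower in HEK293T (-0.34), and SNRPD3 was lower in A549 (-0.19) and higher in HEK293T (0.84). All 3 were called in the interaction (adjusted p = 0.0076, 0.0041 and 0.019). Mitochondrial transcripts, with a median of -0.24 in A549, had one of 1.06 in HEK293T. Of these 15, 13 were called in the interaction, where 12.3% of all genes were.

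**Figure D5:**
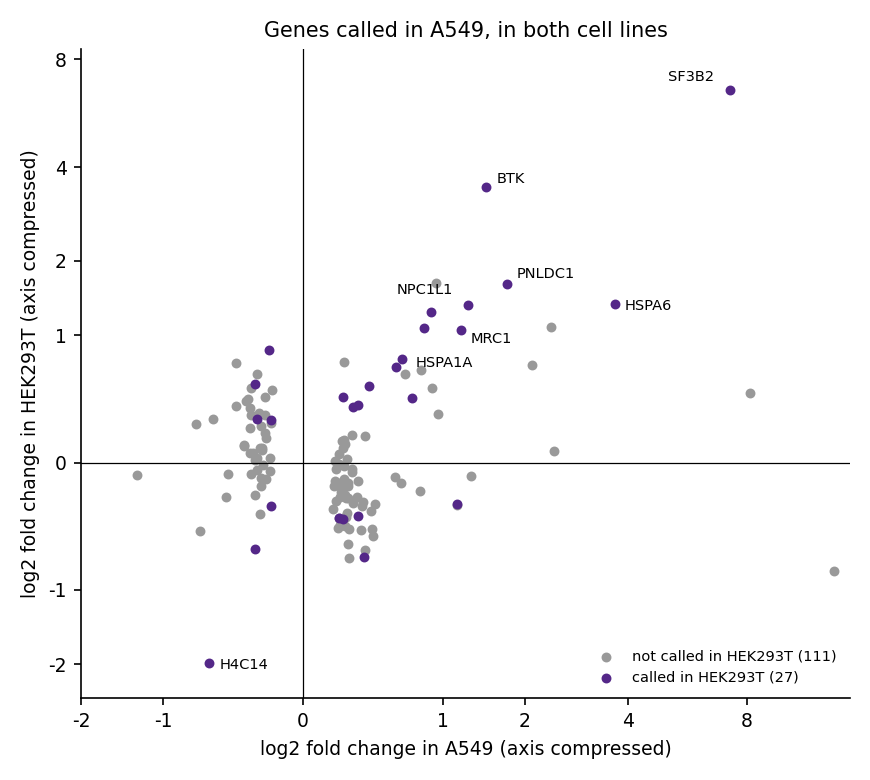
Log2 difference between SF3B2 and snaR-A in HEK293T (y axis) against that in A549 (x axis), 1 point per gene called in A549 and tested in HEK293T, on compressed axes, with the 27 genes that were also called in HEK293T in purple and the other 111 in grey. SF3B2, HSPA6, BTK, MRC1, NPC1L1 and PNLDC1 lie above 1 on both axes, whereas only 34 of 89 genes that were higher in A549 had a positive difference in HEK293T.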

How the data were processed

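RNA-seq libraries came from 6 A549 samples (3 SF3B2, 3 snaR-A), with 18 other libraries of the series as side values. Per the labels and methods, the authors prepared stranded libraries from rRNA-depleted, poly(A)+ RNA, trimmed reads with Trim Galore and quantified transcripts with Salmon on hg38. The authors deposited estimated counts per Ensembl gene, 60236 genes in all, with no scaling between libraries. Of the values, 51.0% were not whole, and all were rounded before testing, which changed 0.034% to 0. Every sample column was used (0 were left without a sample).

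Genes were filtered with filterByExpr (minimum count 10), normalized by TMM and tested with edgeR's quasi-likelihood test and Benjamini-Hochberg adjustment, SF3B2 against snaR-A. CPM are counts relative to the TMM-scaled library total. A gene was called at an adjusted p under 0.05 and passed the threshold with a log2 difference beyond 1 as well. Differences between lines were tested as an interaction over 12 libraries. R 4.3.3, edgeR 4.0.16, DESeq2 1.42.0, Python 3.11.15, pandas 2.3.3 and scipy 1.17.1 were used. Of the IDs, 54903 matched GENCODE 44 and 5333, with 2.53% of the counts, did not. Library totals of 214482353 to 259603629 counts set the counting error. Replicates differed by more than that, with a chi-square per degree of freedom of at least 18.1 within A549 groups.

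The 31 gene lists, the members and the tests were chosen with earlier results of these data known. Named were SF3B2, NME1, the 15 called genes with the largest differences in each direction (a symbol, at least 1 log2 CPM, no overlap) and up to 4 members of each list. Some of these are not reported here. The following were picked with their values in view: BTK, MRC1, NPC1L1, PNLDC1, HSPA8, SF3B1, SREK1, SNRPD3, PRPF38B, RBM42, near copies of named genes, genes named by identifier or by a motif, and called list members that the rule does not reach (such as DNAJB1, ARC and ESRP1).

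Alternatives were exactTest, the DESeq2 Wald test, RLE or library-size scaling, SF3B2 left out of the table, other count filters, no rounding, all 12 libraries of a line, the replicate number as a block, each library left out, and, chosen after seeing the data, a GC offset and counts without the third scramble library. Same-numbered SF3B2 and snaR-A libraries of A549 had residual correlations of 0.012, -0.049 and -0.019, so equal numbers were not taken as pairs. No replicates were copies (chi-square per degree of freedom of at least 18.1 within A549 groups). The steps were tested on simulated data.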

Additional observations from a re-analysis of the deposited data

Results flagged for a closer look

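For 24 genes, which the naming rule took for the size of their difference or which passed the threshold, the difference between SF3B2 and snaR-A was not the same in A549 and HEK293T, by the interaction term of edgeR's quasi-likelihood test with Benjamini-Hochberg adjustment, where 12.3% of all genes were called. These genes were chosen on their A549 difference, 1 side of the interaction, so their number is not read against that share. Values are the log2 difference in A549 minus that in HEK293T. HSPA6 was at 2.29 and BTK at -2.03, both higher with SF3B2 in each line, and SF3B2 itself was at 0.66. The genes P3H2 (0.73), UQCR11 (0.90), RPS29 (0.96), TST (1.01) and MRC2 (0.64) were higher with SF3B2 in A549 and had negative differences in HEK293T. H4C14 was lower in both lines and more so in HEK293T (1.37).

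Lower genes of A549 with positive differences in HEK293T were PER1 (-0.84), SNX18P12 (-0.80), CEP152 (-0.76), NFKBIZ (-0.74), ZNF841 (-0.74), ZBTB10 (-0.60), OTUD6B-AS1 (-0.51) and NR1D2 (-0.36), and ZNF699 (-0.40) had a smaller negative difference there. Among genes of low level, which were named after their values were seen, the values were PIP5K1B 2.39, HP 1.41, TCF19 1.39, ESRP1 1.39, SLC13A3 1.36 and IFNA22P 1.32. The GC trend and the mitochondrial transcripts also ran in opposite directions in the 2 lines, and with the GC offset 1853 interactions were called in place of 3048. The part of the mitochondrial transcripts was not tested. Other genes described above also had an interaction with an adjusted p under 0.05, among them SNRPD3 (-1.04), HNRNPH1 (-0.65), SREK1 (-0.33) and ARC (0.94).

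The third A549 scramble library, which enters no main comparison, held SF3B2 at 7470 CPM, against 317 and 288 CPM in the other scramble libraries. HSPA6 was at 1.77 CPM in it, against 0.615 and 0.566 CPM in the other 2.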

How the results depend on the processing

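Against 146 called genes and 20 past the threshold in A549, edgeR's exactTest gave 1191 and 84, the DESeq2 Wald test 2235 and 10, library-size scaling 569 (77 higher, 492 lower) and 35, no count filter 563 and 53, at least 10 counts in every library 491 (20 past), all 12 A549 libraries 14 and 6, and the GC offset, chosen after seeing the data, 52 and 11. RLE scaling (138), SF3B2 left out of the table (136, with no value for SF3B2) and no rounding (150) stayed near 146. With one library left out, the counts ran from 17 to 2133 and from 8 to 109. With the replicate block they were 9 and 4 in A549 and 2 past the threshold in HEK293T, although equal numbers did not pair libraries. SF3B2 stayed between 7.24 and 7.31, and at 7.29 it missed the adjusted p of 0.05 with all 12 libraries. Library-size scaling left 9 of 30 list medians positive, against 21. In HEK293T the 335 genes became 615 with exactTest, 532 with all 12 libraries and 1 to 960 with one library left out. The 3048 interactions became 5405 with DESeq2, 1853 with the GC offset and 783 to 6679 with one library left out. Of 4204 values for single genes under an alternative, 2913 kept direction and call, 1074 lost a call, 214 gained one and 3 changed sign: NR2F6 with the GC offset (-0.0171), NEAT1 without SF3B2 replicate 2 (-0.00855, up to 0.0990 with another library left out) and H2AC18 without snaR-A replicate 1 (-0.30, up to 0.87 with another library left out and 1.11 with the block). Of the 146 genes, 5 were called in all 17 alternatives, HSPA6, HSPA1A and 3 identifiers with no symbol, and BTK and P3H2 in 16. A fit that leaves out a library rests on 5 libraries. The causes were not tested.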

Other observations

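Nuclear genes of the respiratory chain, on a list written after their values were seen, had 3 higher and 0 lower genes of 72 tested, where 0.426% of all genes were higher, with a median log2 difference of 0.04. With the GC offset none of the 3 was called by edgeR's quasi-likelihood test (adjusted p = 0.0763 for NDUFS8, 0.0609 for UQCR11 and 0.238 for CYC1), and the difference of CYC1 was 0.06. NDUFS8, a complex I subunit, was at 31.8, 32.5 and 30.9 CPM with SF3B2 and at 26.9, 26.8 and 26.8 CPM with snaR-A (log2 difference 0.24). CYC1, cytochrome c1 of complex III, was at 58.8, 60.8 and 58 CPM against 50.2, 49.7 and 53 CPM (0.22), and was lower with SF3B2 in HEK293T (-0.36). UQCR11, the third, is described above. In these 3 genes the A549 groups did not overlap, and the third scramble library (31.6, 61.1 and 28.3 CPM) lay among the SF3B2 libraries or above them.

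E-boxes, the letters CACGTG, were in the promoters of 7 of the 36 lower genes with a listed promoter (19.4%), among them PER1, BHLHE41 and TNFAIP3, and in 4 of the 54 higher genes (7.41%), against 6.34% of all promoters. The window of NR1D2, the third lower clock gene, held 0. Other motifs were searched as well, and the E-box is shown with their values in view. In the lower genes the antioxidant element was in 13.9% (10.9% of all promoters) and the interferon element in 8.33% (6.88%). The cyclic AMP element was in 2.78% (1.65%) and the ATF4 element in 0% (3.14%). These shares are a description of 250 bases before each start site. The remaining lists had few calls, where 0.675% of all genes were called: paraspeckle and nuclear lncRNA genes 0 of 9 (median 0.03), genes typical of A549 0 of 15 (0.10), genes of other cell types 0 of 8 (0.25), and genes typical of HEK293T 1 of 12, LIN28B, which was lower. LIN28B was not called with the GC offset (-0.18, adjusted p = 0.0831, edgeR).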
